A study of Rattus norvegicus with 8 samples.

Results

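Coagulation and complement are plasma enzyme cascades whose components are made mainly by hepatocytes, and 36 rat genes of these cascades were examined here in liver. They were chosen by name: 16 encode clotting factors, anticoagulants or fibrinolytic proteins (the coagulation set), and 20 encode complement components and their regulators (the complement set). Serping1 (C1 inhibitor) and Vtn (vitronectin) act in both cascades and were counted with complement. Probes were matched to 29 of the 36 genes, 12 of coagulation and 17 of complement, and all 29 were tested among 25128 genes. No probe was matched to F5, F9, F11, F13b, C5, C8b or C8g, whose expression was not analysed here.

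In the clotting cascade, inactive proteases activate one another in sequence until thrombin cuts fibrinogen. Antithrombin and the protein C pathway restrain this, and plasmin later dissolves the clot. In complement, the classical, lectin and alternative routes each lead to cleavage of C3 and then to assembly of the membrane attack complex from C5 to C9 components. The cascades meet in C4b-binding protein, a complement regulator whose beta chain binds protein S, the cofactor of activated protein C.

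The rats were male Wistar/ST, and all received a high-fat diet with fructose-rich water for 5 weeks. The Control group (4 arrays) had no further agent, and the Eucommia group (4 arrays) was given leaf extract of Eucommia ulmoides, a tree used for herbal tea. Neither the age of the rats nor a group on normal diet is given in the labels. Liver RNA was hybridised on 1-colour Agilent arrays, 1 sample per array. The Control group filled 1 slide and the Eucommia group another, so slide and treatment cannot be told apart in any value here. Whether every array had its own rat is not spelled out in the labels. The p-values set the group difference only against the variation among these samples, which may be technical. The share of spots well above background was 59.8% ± 1.17 (SD, n = 4) on the Control arrays and 70.7% ± 1.16 on the Eucommia arrays. All 29 genes were well above background on all 8 arrays. Hepatocyte markers were bright (Alb, albumin, 9.96 ± 0.11 in Control and 9.79 ± 0.09 in Eucommia, log2 signal, SD, n = 4).

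Signals are given as log2 values minus the array's 75th percentile, so 0 is the signal at that percentile. Differences are Eucommia minus Control on that log2 scale, and a probe's brightness does not measure the amount of one gene's RNA against another's. In whole liver, fewer cells of a type and less RNA per cell cannot be told apart.

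The main difference was a small decrease in 4 of the 29 genes: Pros1 and Proc in the coagulation set, and C6 and C4bpb in the complement set, each 20.1% to 26.2% lower in the Eucommia group. None was higher. By limma with Benjamini-Hochberg adjustment over all genes, 13.8% of the 29 genes passed, against 24.6% of all genes tested in either direction. All genes lower made up 6.17% and all genes higher 18.4%. Most genes called higher were dim, so the nearer comparison is with the 5317 genes in the same range of signal as these 29: there 7.96% passed, 5.57% lower and 2.39% higher. An unadjusted limma p under 0.05 was found for 11 of the 29 genes. It was also found for 35.7% of all genes and for 980 of the 5317 in that range. The median log2 difference of the 29 was -0.15, against 0.02 over all genes and -0.04 over genes in that range. In sign, 23 of the 29 were negative, where 47.4% of all genes and 59.1% of those in that range were. Brightness moved with the sign: among genes at a log2 signal above 8, where 6 of the 29 lie, 82.0% were negative with a median of -0.14, 14.4% were called and 12.9% were called lower, while 0 of these 6 passed. From 6 to 8, 2 of 10 were called lower, where 8.12% of all genes were called and 5.83% called lower, with medians of -0.18 and -0.06. From 4 to 6, 1 of 8 was called lower, where 7.01% of all genes were called and 4.57% called lower, with medians of -0.04 for both. From 2 to 4, 0 of 3 passed, where 7.76% of all genes were called. From 0 to 2 lie Pros1, which passed, and F7, with a median of -0.28 against -0.03 for all genes there, of which 11.8% were called and 6.38% called lower.

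**Figure D1:**
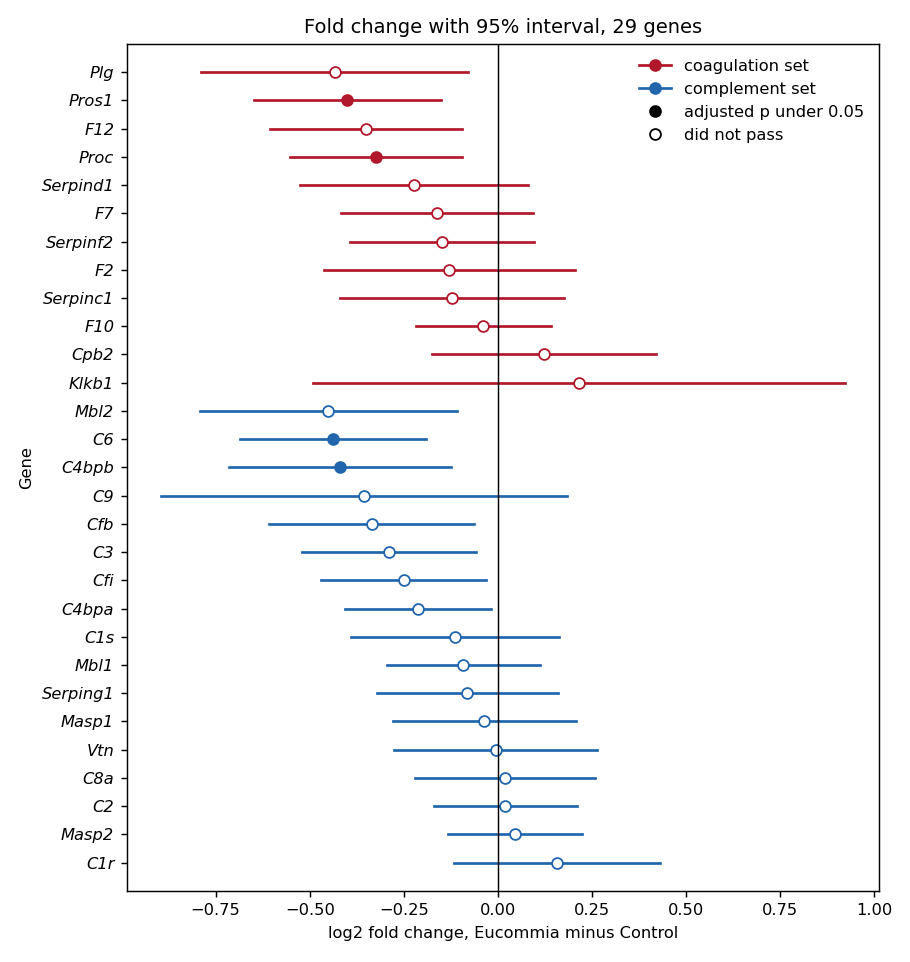
Log2 difference (Eucommia minus Control, horizontal axis) of each of the 29 genes, with the 95% interval from limma (n = 4 arrays a group). Filled points passed an adjusted p of 0.05: Pros1, Proc, C6 and C4bpb, all to the left of 0; the widest intervals are those of Klkb1 and C9.

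**Figure D2:**
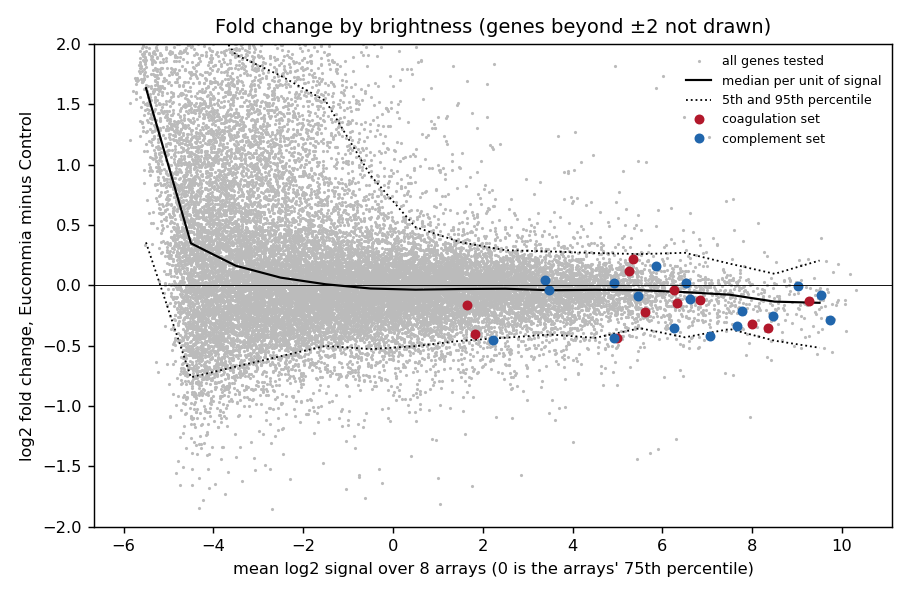
Log2 difference against mean log2 signal for all genes tested (grey) and the 29 genes (coloured by set), with the median and the 5th and 95th percentiles of all genes per unit of signal; genes beyond a difference of 2 in either direction are not drawn. Dim genes spread widely and upward, while the 29 genes sit at signals from 1.65 to 9.74, where the median of all genes is slightly below 0.

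The promoters of the 4 genes that passed, all lower in the Eucommia group, are shown. Each window runs from 250 bases before to 50 bases after the start site in RefSeq's annotation of build GRCr8, read 5′ to 3′ on the gene's strand. Proc lies at chr18:24048892-24049191 (minus strand), Pros1 at chr11:13677049-13677348 (plus), C4bpb at chr13:44683732-44684031 (minus) and C6 at chr2:55573383-55573682 (plus). Capitals mark the letters searched for on both strands.
Proc: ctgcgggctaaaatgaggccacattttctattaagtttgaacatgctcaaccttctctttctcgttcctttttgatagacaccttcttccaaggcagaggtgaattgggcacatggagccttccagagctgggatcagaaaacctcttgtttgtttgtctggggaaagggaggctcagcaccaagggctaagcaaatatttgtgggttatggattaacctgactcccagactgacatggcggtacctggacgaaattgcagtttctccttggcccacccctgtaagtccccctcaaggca
Pros1: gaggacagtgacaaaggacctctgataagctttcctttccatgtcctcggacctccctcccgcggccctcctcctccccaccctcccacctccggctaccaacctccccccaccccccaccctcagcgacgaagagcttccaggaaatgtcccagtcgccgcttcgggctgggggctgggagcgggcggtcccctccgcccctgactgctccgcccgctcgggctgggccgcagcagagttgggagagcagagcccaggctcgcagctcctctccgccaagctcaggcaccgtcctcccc
C4bpb: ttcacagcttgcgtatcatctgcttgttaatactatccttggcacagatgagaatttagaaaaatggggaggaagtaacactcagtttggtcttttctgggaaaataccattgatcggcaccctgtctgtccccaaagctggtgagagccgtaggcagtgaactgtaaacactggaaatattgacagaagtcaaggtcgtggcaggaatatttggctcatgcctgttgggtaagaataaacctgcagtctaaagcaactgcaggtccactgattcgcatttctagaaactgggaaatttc
C6: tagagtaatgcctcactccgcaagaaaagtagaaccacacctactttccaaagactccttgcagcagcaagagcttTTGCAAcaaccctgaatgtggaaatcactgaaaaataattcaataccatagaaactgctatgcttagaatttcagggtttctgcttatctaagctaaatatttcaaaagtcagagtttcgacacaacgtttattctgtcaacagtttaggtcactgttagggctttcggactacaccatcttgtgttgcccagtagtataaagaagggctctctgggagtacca
The letters were AAGTCCA or AAGGTCA (for HNF4) and TTGCAA (for C/EBP), after factors known to drive liver genes. C6 held TTGCAA, which reads the same on both strands, with its first base at -174 from the start site. The windows of Proc, C4bpb and Pros1 held none of these letters, and that of Pros1 was GC-rich (69.0% G or C). Windows were found for 27 of the 36 genes. The HNF4 letters were in 3 of these 27 (11.1%; F7, F9 and C5) and in 8.26% of all 33469 windows. TTGCAA was in 2 (7.41%; C4bpa and C6), against 5.87% of all windows. These matches are descriptions of letters and not of bound sites.

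Among the anticoagulants, all 4 tested genes were negative and 2 passed. Of all genes, 47.4% were negative and 24.6% passed. Of genes in the same range of signal as the 29, 59.1% were negative and 7.96% passed. Pros1 encodes protein S, which assists activated protein C. Its log2 signals were 1.96, 1.84, 2.01 and 2.26 on the Control arrays and 1.58, 1.71, 1.67 and 1.52 on the Eucommia arrays. Every Eucommia array was below every Control array. The difference was -0.40 ± 0.11 (SE; adjusted p = 0.0270 by limma), or 24.2% lower with a 95% interval of 10.01% to 36.2%. A second, dimmer Pros1 probe differed by -0.11 ± 0.09 and did not pass (adjusted p = 0.415 with every probe tested by limma). The call therefore belongs to 1 of 2 probes, and with their mean it was lost (-0.25, adjusted p = 0.0730).

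Proc encodes protein C, the zymogen that thrombin turns into an anticoagulant protease. It read 8.003, 8.18, 8.24 and 8.22 on the Control arrays and 7.71, 7.77, 7.85 and 8.008 on the Eucommia arrays. Eucommia replicate 4 lay just above Control replicate 1, so the groups overlapped slightly. The difference was -0.32 ± 0.10 (SE; adjusted p = 0.0465 by limma), 20.1% lower with a 95% interval of 6.35% to 31.8%. The size depended on the scaling: normexp with quantile normalization gave -0.025 (adjusted p = 0.799 by limma).

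The inhibitors antithrombin and heparin cofactor II did not pass. Serpinc1, for antithrombin, differed by -0.12 (95% interval -0.42 to 0.17), and Serpind1, for heparin cofactor II, by -0.22 (-0.52 to 0.08). Neither interval excludes a decrease as large as that of Proc or Pros1.

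Of the 5 tested clotting factors of the procoagulant route, 0 passed by limma, and 1 had an unadjusted p under 0.05. F12, for factor XII, which starts the contact pathway on charged surfaces, was the nearest to the threshold, at -0.35 ± 0.11 (SE; adjusted p = 0.0522 by limma). Its Control mean was 8.54 ± 0.07 and its Eucommia mean 8.19 ± 0.19 (log2 signal, SD, n = 4). The lowest Control array lay just under the highest Eucommia array, and the second probe of F12 gave -0.16 ± 0.12. The other factors were closer to 0.

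F2 encodes prothrombin, the precursor of thrombin. Its log2 signals were 9.36, 8.92, 9.52 and 9.51 in Control and 9.05, 9.14, 9.27 and 9.34 in Eucommia. The lowest of all 8 was a Control array, and the difference of -0.13 (95% interval -0.46 to 0.21) did not pass. F10, for factor X, which turns prothrombin into thrombin, had the narrowest interval of the set, from -0.22 to 0.14 around -0.04. F7, for factor VII, the partner of tissue factor, differed by -0.16 (-0.42 to 0.09).

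Klkb1, for plasma prekallikrein, the partner of factor XII, had the largest positive difference of the coagulation set. It read 5.08, 4.49, 5.87 and 5.55 on the Control arrays and 4.85, 5.63, 5.73 and 5.64 on the Eucommia arrays. Arrays of both groups lay across the same range, and the difference of 0.22 ± 0.31 (SE) did not pass (95% interval -0.49 to 0.92). Without Control replicate 2 it was -0.036, so its sign rested on that array.

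In fibrinolysis, 0 of 3 genes passed by limma, with 1 unadjusted p under 0.05. Plg, for plasminogen, had the largest negative difference of the coagulation set. It read 5.22, 4.99, 5.14 and 5.44 in Control and 4.86, 4.89, 4.95 and 4.36 in Eucommia. The groups did not overlap, and Eucommia replicate 4 lay well under the others. The difference was -0.43 ± 0.16 (SE; adjusted p = 0.0778 by limma), and -0.30 without that array.

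Serpinf2, for alpha-2-antiplasmin, the main plasmin inhibitor, read 6.17, 6.36, 6.55 and 6.54 in Control and 6.26, 6.16, 6.30 and 6.31 in Eucommia. The groups overlapped, and the difference of -0.15 (95% interval -0.39 to 0.10) did not pass. Cpb2, for a carboxypeptidase that slows fibrinolysis, had a positive value of 0.12 (-0.17 to 0.42).

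**Figure D3:**
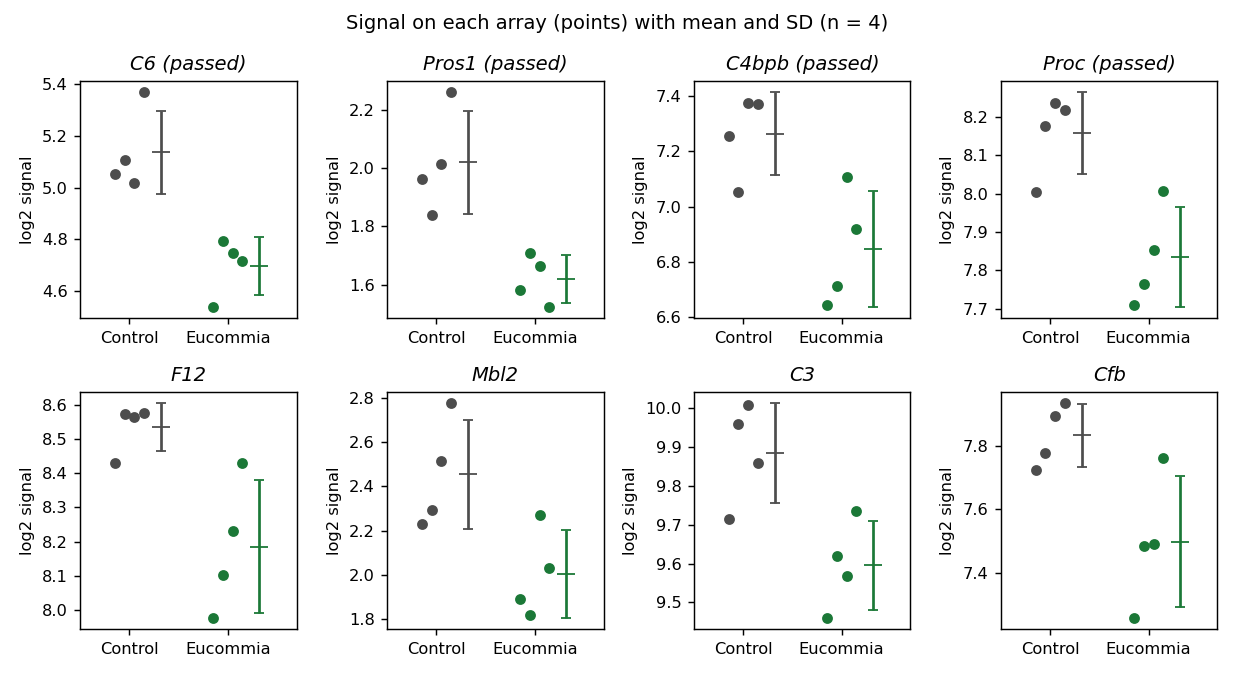
Log2 signal on each array (points) with the group mean and SD (bars, n = 4) for the 8 genes with the smallest p, each panel on its own vertical scale. C6 and Pros1 separate fully between groups, while in the other 6 panels the highest Eucommia array reaches the lowest Control array or lies above it.

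In the classical pathway of complement, 1 of 6 tested genes passed, toward lower values. Of all genes 24.6% passed, and 7.96% of those in the same range of signal as the 29. C4bpb, for the beta chain of C4b-binding protein, read 7.26, 7.05, 7.38 and 7.37 on the Control arrays and 6.64, 6.71, 7.11 and 6.92 on the Eucommia arrays. Eucommia replicate 3 lay above Control replicate 2, and the other Eucommia arrays lay below all Control arrays. The difference was -0.42 ± 0.13 (SE; adjusted p = 0.0454 by limma), 25.2% lower with a 95% interval of 8.26% to 39.1%. C4bpa, for the alpha chain that binds C4b, differed by -0.21 ± 0.08 with no overlap of the groups, but did not pass (adjusted p = 0.108 by limma).

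Serping1, for C1 inhibitor, which blocks C1r and C1s as well as kallikrein and factor XIIa, read 9.44, 9.43, 9.80 and 9.61 in Control and 9.49, 9.43, 9.46 and 9.58 in Eucommia. The Eucommia arrays lay at the level of the lower Control arrays, and the difference was -0.08 (95% interval -0.32 to 0.16). C1r, for one of the proteases of the C1 complex, had the largest positive difference of the complement set. Its log2 signals were 5.79, 5.53, 5.91 and 5.91 in Control and 5.94, 6.01, 6.08 and 5.74 in Eucommia. All but Eucommia replicate 4 lay above the Control arrays, and 0.16 ± 0.12 (SE) did not pass (-0.12 to 0.43). C1s, the other protease of C1, differed by -0.11 and C2, which the C1 complex cuts, by 0.02 (-0.17 to 0.21).

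The 4 lectin pathway genes all failed to pass, with 1 unadjusted p under 0.05. Mbl2, for a mannose-binding lectin, had the largest negative difference of all 29 genes. It read 2.23, 2.30, 2.51 and 2.78 in Control and 1.89, 1.82, 2.27 and 2.03 in Eucommia. Only Eucommia replicate 3 reached the Control range. The difference was -0.45 ± 0.15 (SE; adjusted p = 0.0602 by limma).

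Mbl1, for the other mannose-binding lectin of rats, read 5.50, 5.49, 5.45 and 5.52 in Control and 5.28, 5.31, 5.51 and 5.50 in Eucommia. Eucommia replicates 3 and 4 lay within the Control range, and the difference was -0.09 (95% interval -0.29 to 0.11). Masp1 and Masp2, for the proteases that these lectins carry, differed by -0.04 (-0.28 to 0.21) and 0.05 (-0.13 to 0.22) by their brightest probes. The dimmer probes gave -0.20 and -0.19 for Masp1 and -0.13 and -0.15 for Masp2, and did not pass. The positive value of Masp2 thus came from 1 of its 3 probes.

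C3 and the alternative pathway gave 3 negative values of similar size, each with an unadjusted p under 0.05, and 0 of 3 passed by limma. Such an unadjusted p was found for 35.7% of all genes and for 980 of the 5317 in the same range of signal. C3, on which all routes converge, read 9.71, 9.96, 10.01 and 9.86 in Control and 9.46, 9.62, 9.57 and 9.73 in Eucommia. Control replicate 1 and Eucommia replicate 4 overlapped, and the other arrays were apart. The difference was -0.29 ± 0.10 (SE; adjusted p = 0.0730 by limma). Cfb, for factor B, the protease of the alternative route, differed by -0.34 ± 0.12 (adjusted p = 0.0758 by limma), with 1 Eucommia array inside the Control range. Cfi, for factor I, which inactivates C3b, differed by -0.25 ± 0.10 (adjusted p = 0.0963 by limma) with no overlap.

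In the terminal pathway, 1 of 4 tested genes passed, against 24.6% of all genes and 7.96% of those in the same range of signal. C6, a component of the membrane attack complex, read 5.05, 5.10, 5.02 and 5.37 in Control and 4.54, 4.79, 4.75 and 4.71 in Eucommia. The groups were fully apart, with Control replicate 4 above the rest. The difference was -0.44 ± 0.11 (SE; adjusted p = 0.0176 by limma), the smallest p of the 29 genes, and 26.2% lower with a 95% interval of 12.4% to 37.8%.

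Vtn, for vitronectin, which keeps the assembling complex off host membranes, read 8.93, 9.01, 9.06 and 9.06 in Control and 8.79, 8.91, 9.04 and 9.30 in Eucommia. The Eucommia arrays lay on both sides of the Control arrays, and the difference was -0.01 (95% interval -0.27 to 0.26). C9, which forms the pore, had a difference of -0.36 ± 0.24 (SE), and its Eucommia arrays ran from 5.33 to 6.53 against 6.36 to 6.59 in Control. Most of that value came from Eucommia replicate 4: without it the difference was -0.11. C8a, for the alpha chain of C8, differed by 0.02 by its brighter probe and by -0.43 ± 0.11 by its dimmer one, which passed when every probe was tested (adjusted p = 0.0246 by limma). Of the 8 genes with more than 1 probe, C8a and Pros1 had probes that differed in whether they passed.

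**Figure D4:**
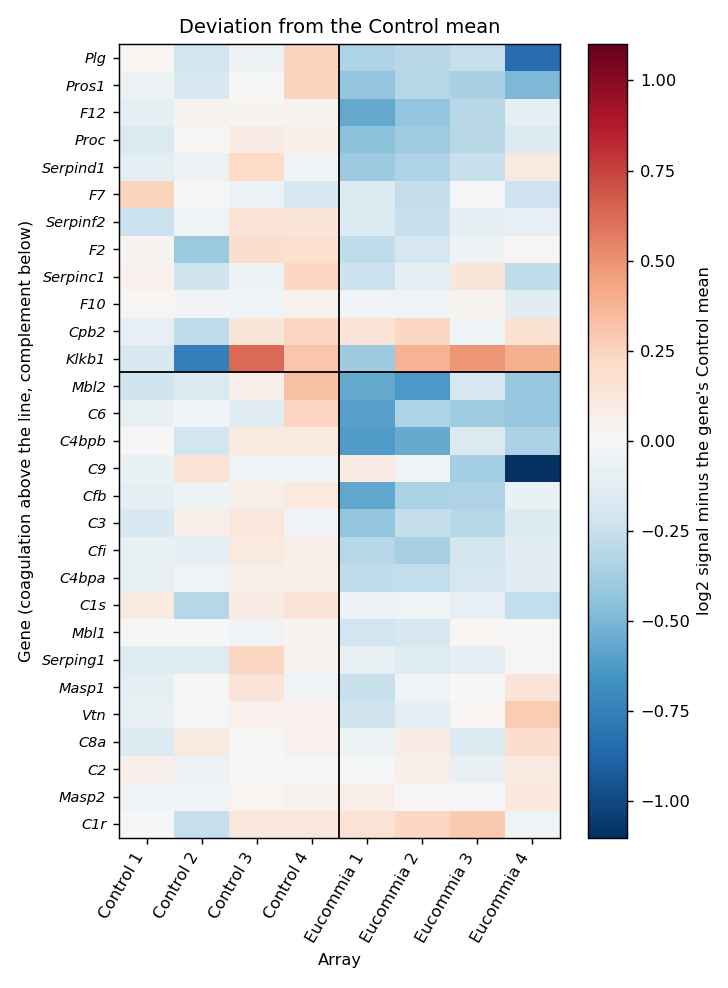
Log2 signal of each gene (rows, coagulation above the line) on each array (columns) minus the gene's Control mean, blue below and red above. Eucommia replicate 1 is blue in most rows, Eucommia replicate 4 is paler in many, and Plg and C9 are darkest on Eucommia replicate 4.

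The sets differed little from each other. In coagulation 2 of 12 genes (16.7%) passed and in complement 2 of 17 (11.8%), all lower. The median difference was -0.16 for coagulation and -0.11 for complement, and 10 of 12 and 13 of 17 were negative. Groups did not overlap at 2 coagulation genes (Pros1 and Plg) and 3 complement genes (C4bpa, C6 and Cfi), 17.2% of the 29. Over all genes that share was 28.5%, and 15.8% among genes in the same range of signal.

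On each array, the median over a set of the signal minus the gene's Control mean was taken. For coagulation it was -0.07, -0.12, 0.05 and 0.16 on the Control arrays and -0.31, -0.25, -0.08 and -0.11 on the Eucommia arrays. For complement it was -0.08, -0.04, 0.06 and 0.05, then -0.22, -0.14, -0.15 and -0.07. In both sets the Control and Eucommia arrays overlapped at their edges. Coagulation minus complement averaged 0.01 ± 0.08 (SD, n = 4) on the Control arrays and -0.04 ± 0.08 on the Eucommia arrays, a gap smaller than the spread within either group. The arrays of a group were not alike across genes: of the 29 genes, 13 had their lowest Eucommia value on replicate 1 and 15 their highest on replicate 4. In Control, 12 and 13 were lowest on replicates 1 and 2, and 11 and 14 highest on replicates 3 and 4.

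**Figure D5:**
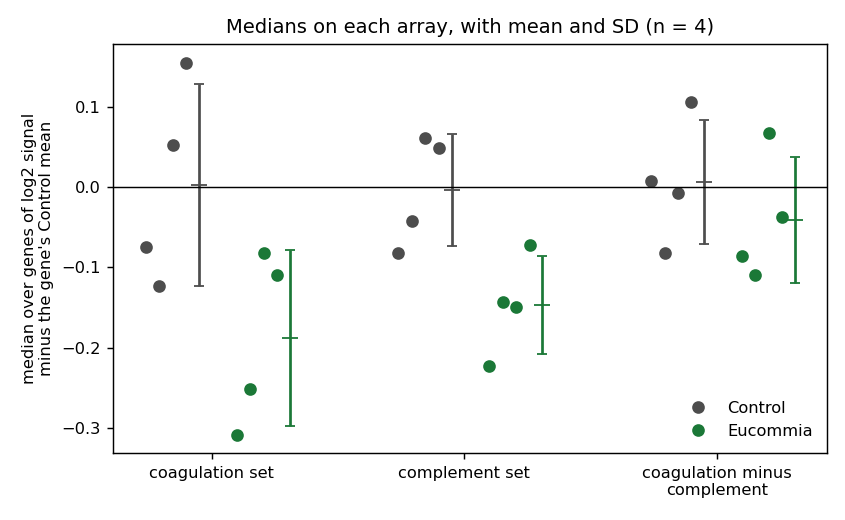
Median over the genes of each set of the log2 signal minus the gene's Control mean, and the difference between sets, on each array (points) with mean and SD (bars, n = 4). Both sets sit lower on the Eucommia arrays with some overlap, and their difference stays around 0 in both groups.

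Most of the calls were lost when a single array was left out, while the differences stayed of similar size. Without one array Pros1 ran from -0.46 to -0.32, Proc from -0.38 to -0.28, C4bpb from -0.51 to -0.35 and C6 from -0.48 to -0.36. C6 passed in 22 of 23 alternative settings and missed without Eucommia replicate 1 (adjusted p = 0.0514 by limma). Pros1 passed in 16, Proc in 13 and C4bpb in 13. With 1 array left out, C6 passed in 7 of 8 fits, Pros1 in 3, Proc in 2 and C4bpb in 2. Without Eucommia replicate 1, 0 of the 29 genes passed by limma, with 7 unadjusted p-values under 0.05. Without Control replicate 3 or 4 only C6 did. The Pros1 call needed each of Control replicates 3 and 4 and Eucommia replicates 1, 3 and 4 (without one of them, limma gave adjusted p from 0.0531 to 0.0679). Proc needed Control replicates 2, 3 and 4 and Eucommia replicates 1, 2 and 3 (from 0.0897 to 0.121), and C4bpb needed Control replicates 1, 3 and 4 and Eucommia replicates 1, 2 and 4 (from 0.0682 to 0.121). All 4 were negative in all 23 settings, but these settings are not independent of one another. The deposited series table repeated the main fit exactly. The other filters, the trended variance and the replicate block left the 4 differences unchanged, so their sign could not turn there. The counts out of 23 include such repeats. With the 5317 genes in the same range of signal fitted alone, C6 and Pros1 passed, and Proc (0.0605) and C4bpb (0.0639) did not.

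The vitamin K cycle serves several clotting proteins, among them prothrombin, factors VII and X, protein C and protein S, by enabling their gamma-carboxylation. Of 11 genes for this cycle and for secretion of clotting factors, 1 was lower and 1 higher (18.2%, against 24.6% of all genes called). Vkorc1, the reductase that regenerates vitamin K and the target of warfarin, fell by 0.41 ± 0.10 (log2, SE; adjusted p = 0.0134 by limma). Its Control mean was 8.09 ± 0.13 and its Eucommia mean 7.68 ± 0.06 (log2 signal, SD, n = 4), without overlap. It passed in 22 of 23 alternative settings, missing with the replicate block, and was smallest with normexp and quantile normalization (-0.20). Nqo1, a quinone reductase, rose by 1.07 ± 0.26 (adjusted p = 0.0154) from a dim signal of -3.02. With normexp and quantile normalization the Nqo1 difference was 0.38 and did not pass (adjusted p = 0.0715 by limma). Ggcx, the carboxylase itself, differed by -0.01 ± 0.16.

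Of 20 other clotting and fibrinolysis genes tested, 1 was higher and 0 lower (5%, against 24.6% of all genes called). The fibrinogen chains Fga, Fgb and Fgg, which thrombin cuts to fibrin, had values of -0.22, -0.16 and -0.25 and did not pass. F13a1, for the A chain of the fibrin-linking factor XIII, was at least 1.58-fold higher. It was well above background on 0 Control and 4 Eucommia arrays, and the bound sets the Eucommia mean against the lowest signals well above background. The gene was tested only because the group where it is high passed the filter, so its call and the count of 1 higher gene were favoured by that filter. With the normexp background correction its fitted difference was 0.11 (quantile normalization) or 0.13 (percentile) and did not pass.

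Of 24 other complement genes tested, 2 were lower and 0 higher (8.33%), with a median of -0.40 and 20 negative. Of all genes, 24.6% were called, 6.17% were called lower and 47.4% were negative. Cfd, for factor D, which cuts factor B, had a difference of -0.49 ± 0.15 (SE; adjusted p = 0.0434 by limma), and Cr1l, a membrane regulator of complement, -0.53 ± 0.15 (adjusted p = 0.0308). In the fits that left out 1 array, Cfd passed in 2 of 8 and Cr1l in 4 of 8. Several genes of this list are known from macrophages, and C1qa, C1qb and C1qc, for the recognition subunit of C1, had -0.45, -0.42 and -0.50 and did not pass.

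Of 10 tested macrophage markers, 0 passed by limma, with 2 unadjusted p-values under 0.05 (35.7% of all genes had one). All 10 had negative values with a median of -0.48, and 4 of them (C1qa, C1qb, C1qc and Vsig4) also belong to the list of other complement genes. Their summed log2 signal ran from 6.80 to 7.51 on the Control arrays and from 6.39 to 7.06 on the Eucommia arrays. Of the hepatocyte markers, 7 of 10 were negative with a median of -0.18, and 1 (Tf, transferrin) passed at -0.55 ± 0.11. The median log2 signal of this list was 8.65. Of all genes above a log2 signal of 8, 82.0% were negative with a median of -0.14, and 12.9% were called lower. The summed log2 signal of the hepatocyte markers ran from 12.18 to 12.33 in Control and from 11.99 to 12.23 in Eucommia. Other marker lists held genes that rose: Col1a1 of stellate cells by 0.83 ± 0.16 (adjusted p = 0.00556 by limma; median of 9 markers 0.32), Cdh5 of endothelium by 1.01 ± 0.09 (adjusted p = 3.79e-05) and Cd3d of T cells by 0.85 ± 0.12 (adjusted p = 7.39e-04). Cdh5 was dim, with a Control mean of -3.10 (log2 signal). Cdh5 and Cd3d did not stand for their lists. In the endothelial list 4 of 6 tested genes were negative, with a median of -0.16. In the T and NK cell list 4 of 7 were negative, with a median of -8.4e-06. Of 4 tested bile duct genes, 1 was lower (Epcam, -0.52 ± 0.13, adjusted p = 0.0163 by limma) and 1 higher (Cftr). Of 3 tested neutrophil genes, 1 (Elane) was higher. Cftr and Elane were well above background on 0 Control and 4 Eucommia arrays, so the filter favoured their calls. The part of any of these cell types in the values above was not tested. The platelet list had a median log2 signal of -2.09, against -1.36 over all genes tested. Of its 5 tested genes, 1 (Ppbp) was higher (20%, against 24.6% of all genes called). Ppbp was well above background on 1 Control and 4 Eucommia arrays. It thus passed the filter through the group where it is high, which favoured its call.

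Of 17 liver transcription factors and signalling genes tested, 1 was lower and 1 higher (11.8%, against 24.6% of all genes called). Foxa2, a factor of hepatocyte genes, had a difference of -0.65 ± 0.18 (SE; adjusted p = 0.0259 by limma), and the bile acid receptor Nr1h4 rose by 0.39 ± 0.09 (adjusted p = 0.0150). Nr1h4 did not pass with median centring (0.13, adjusted p = 0.319 by limma) or with the replicate block. Foxa2 passed in 4 of the 8 fits with 1 array left out. Hnf4a, a factor of many clotting genes, differed by -0.12 ± 0.10, short of the threshold. Stat3, which carries interleukin-6 signals to complement genes, had -0.40 ± 0.13 and did not pass (adjusted p = 0.0522 by limma).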

How the data were processed

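The deposited scanner files hold spot intensity from the scanner software, per the file headers; the submitters' processing notes name Agilent Feature Extraction 10.1.1.1. That processed signal is not scaled between arrays. The deposited flags mark control, outlier and saturated spots and spots well above background. The deposited series table matched it at 100% of the 43379 spots that are not controls.

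Log2 signals were centred on each array's 75th percentile. Outlier spots were left out, spots of a probe averaged, and a probe kept if well above background on at least 4 of 8 arrays (27724 of 41012). Accessions were matched without versions to RefSeq symbols of GRCr8, naming 16336 probes. A gene is its brightest kept probe, and each unnamed probe counts as a gene. The test between groups was that of limma 3.58.1 (R 4.3.3), 2-sided, with Benjamini-Hochberg adjustment over 25128 genes and a threshold of 0.05. The number of arrays limits the precision.

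The genes and lists were chosen with earlier results of these data known. Signals on every array are given for genes that passed, for the largest difference in each direction in each set and for the brightest gene of each role. The fit was tested on simulated data, with 5 false calls. It recovered 60% of genes given a log2 change of -1 and 56% of those given 1. Of genes given -0.4 or 0.4, close in size to the differences called here, it recovered 0%. The simulation changed far fewer genes than were called here, which made its adjusted threshold harder to pass. Alternatives were other scalings, filters, probe rules and variance models, leaving out each array, and a replicate block; normexp used the median spot signal, since the files used here give no mean signal. No slide block could be fitted. Promoter windows came from RefSeq (GRCr8). Results for 1 listed transcription factor are not reported here.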

Additional observations from a re-analysis of the deposited data

Results flagged for a closer look

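Within groups of 4 arrays, 6 values lay far from the other 3, judged by the gap to the nearest over the whole range (Dixon's test, 95% level). With 62 groups examined, chance flags about 1 in 20. On the log2 scale, C1s read 6.36 on Control replicate 2 against 6.76 to 6.82 on the others. C9 read 6.59 on Control replicate 2, with the others from 6.36 to 6.40. F12 read 8.43 on Control replicate 1, where the others were between 8.56 and 8.58. Klkb1 read 4.85 on Eucommia replicate 1, and the other Eucommia arrays 5.63 to 5.73. Plg read 4.36 on Eucommia replicate 4 beside 4.86 to 4.95, and Serpind1 read 5.94 on Control replicate 3 beside 5.62 to 5.67. None of these 6 genes passed the test between groups.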

How the results depend on the processing

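Which genes passed depended on the scaling. Median centring moved the median log2 difference of all genes from 0.02 to -0.24 and gave 11742 called genes in place of 6174, with 32.3% of them higher in place of 74.9%. With that shift included, 8 coagulation and 10 complement genes were called lower (medians -0.41 and -0.37). Of all 25128 genes, 46.7% were called and 7954 were called lower. Quantile normalization (58.4% of called genes higher) left 1 lower in each set, where 28.3% of all genes were called. The fit of the 5317 genes in the same range of signal (329 called, 6.19%), added after seeing the data, also left 1 lower in each. The percentile taken over detected probes alone (24.4% of all genes called) and cyclic loess (added, 27.5% called, 64.8% of them higher) left 1 in complement. The mean over probes (24.8% called) left 1 in coagulation. Trended variance called 4 in coagulation and 5 in complement, where 25.4% of all genes were called. Array weights called 3 and 7, where 26.6% of all genes were called. The complement median was -0.039 with normexp and quantile normalization (59.2% higher), -0.18 with normexp and the percentile, -0.20 with the mean over probes and -0.044 with cyclic loess. Without a filter 12769 genes were called (42.2% higher), and with all 8 arrays required 3701 (62.8% higher).

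With 1 array left out, over the gene set fixed on 8 arrays, 0 to 2 coagulation and 0 to 3 complement genes were called lower, none higher, with medians from -0.22 to -0.13 and from -0.22 to -0.081, and 4934 to 5738 genes were called in all. Over all genes, same-numbered arrays did not deviate together from their group means (correlations -0.10 to -0.03). Whether such arrays were handled together cannot be read from these values. With the replicate block 0 coagulation and 2 complement genes passed, where 20.4% of all genes were called.

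Of genes that did not pass, these turned sign. Quantile normalization gave 0.0023 for F2, 0.0050 for F10, 0.029 for Masp1, 0.13 for Vtn and 0.087 for Serping1. Median centring gave -0.040 for Klkb1, -0.13 for Cpb2, -0.098 for C1r, -0.24 for C2, -0.24 for C8a and -0.21 for Masp2. Vtn was 0.018 with the percentile over detected probes. Normexp with quantile normalization gave 0.0099 for F10, 0.042 for Masp1 and 0.059 for Vtn. The mean over probes gave -0.20 for C8a and -0.079 for Masp2, and array weights gave -0.017 for C8a. Cyclic loess gave 0.031 for F10, 0.014 for Masp1 and 0.072 for Vtn. With 1 array left out, C8a ran from -0.040 to 0.075, Klkb1 from -0.036 to 0.42, C2 from -0.0073 to 0.055, Masp1 from -0.094 to 0.034 and Vtn from -0.10 to 0.066. The cause of these changes was not tested.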
